A study of Mus musculus with 16 samples.

Results

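Expression of 39 genes of the ATF4 and unfolded protein response pathways was examined in whole liver of mice that differ in diet and in Klrk1, the gene of the activating receptor NKG2D. The genes were taken by name from a table of 25719 genes, and each of the 39 names was found. A second row named Ddit3, inside Ddit3 on the same strand, was kept apart, and it was not called in any comparison. The genes were ordered by role into 4 sensors (Eif2ak3, Ern1, Atf6 and the effector Xbp1), 11 stress factors (Atf4, its partners and the targets that relay or limit the response), 10 genes of amino acid synthesis and uptake, called the amino acid arm, and 14 chaperones and degradation factors of the endoplasmic reticulum (ER), called the ER chaperone arm. The mice were C57BL6J animals labelled WT or Klrk1-/- animals, which lack NKG2D in all cells. They were fed NCD, a normal chow diet, or SSD, a steatosis and steatohepatitis diet rich in fat, fructose and cholesterol, for 3 weeks. There were 4 NCD-fed WT, 5 SSD-fed WT, 4 NCD-fed Klrk1-/- and 3 SSD-fed Klrk1-/- mice. By the study's methods all were male, and 8 to 12 weeks is the age given for mice put on the diets. Both genotypes came from the authors' breeding colonies, no source used here says that they were littermates, and so genotype and breeding line cannot be told apart.

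The ER folds secreted and membrane proteins, and 3 sensors in its membrane respond when unfolded protein accumulates. PERK (Eif2ak3) phosphorylates the translation factor eIF2 alpha, which lowers protein synthesis but raises translation of the Atf4 mRNA. ATF4 then drives genes of amino acid supply, and kinases that sense amino acid shortage, viral RNA or haem shortage reach ATF4 by the same route without the ER. IRE1 (Ern1) splices the Xbp1 mRNA and ATF6 is cut to release a transcription factor, and both raise ER chaperones and the factors that send misfolded proteins to degradation. Hepatocytes secrete most plasma proteins and carry a large ER. ATF4 and XBP1 are controlled at translation and by splicing, so mRNA counts of Atf4 and Xbp1 do not measure either protein, and these counts do not tell the splice forms of Xbp1 apart.

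The 16 libraries held 19892025 to 28936707 reads on genes. Values are normalized counts, the reads of a gene divided by 1 factor per mouse. Klrk1 was between 20.1 and 71.1 in the 9 WT mice and between 0.966 and 8.71 in the 7 Klrk1-/- mice, and it was lower in Klrk1-/- mice on NCD (log2 fold change -2.40, SE 0.46, adjusted p = 0.00724) and on SSD (-3.90, SE 0.41, adjusted p = 0.00165, limma). Hepatocyte markers were abundant in every liver. Of the 5 macrophage markers, 3 rose with SSD in WT mice, and their summed normalized count was between 3946 and 4193 in NCD-fed WT, 5792 and 12582 in SSD-fed WT, 3468 and 4215 in NCD-fed Klrk1-/- and 4357 and 5659 in SSD-fed Klrk1-/- mice. With SSD in WT mice 2 of the 4 stellate cell markers and 3 of the 4 endothelial markers were also called higher, where 17.3% of all genes were, and in Klrk1-/- mice 2 of the 5 macrophage, 3 of the 4 stellate cell, 1 of the 4 endothelial and 1 of the 4 cholangiocyte markers, where 13.4% of all genes were. The T and NK cell markers were low, and their sum was between 24.1 and 32.2 in NCD-fed WT and between 41.6 and 69.7 in SSD-fed WT mice, which did not overlap, with neither of the 2 tested called. SSD-fed WT replicate 1 was highest in both the macrophage sum and the stellate sum (10888). That mouse was also the highest of its group in 9 of the 10 genes of the amino acid arm. NCD-fed WT replicate 1 was the highest of its group in 11 of the 14 genes of the ER chaperone arm, and NCD-fed Klrk1-/- replicate 3 was the lowest of its group in all 14. Counts over the arms are given with these 3 mice, called outlying here, and, where they moved, without them. The 3 were picked after their values were seen, and other extreme mice were kept. SSD-fed WT replicate 3 was the lowest of its group in 8 genes of the amino acid arm. In the ER chaperone arm NCD-fed WT replicate 3 and SSD-fed WT replicate 4 were each lowest in 11 genes. NCD-fed Klrk1-/- replicate 4 was highest in 10 genes of that arm.

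The promoters of the 39 genes were read from the GRCm39 genome, from 250 bases before to 50 bases after the start of the GENCODE canonical transcript, and searched on both strands for 3 sequences. The first was the C/EBP-ATF response element, TGATGNAAN, through which ATF4 acts on many targets. The second was the ER stress response element, CCAAT and CCACG with 9 bases of any kind between them, which binds ATF6 together with NF-Y. The third was TGACGTGG, a core bound by ATF6 and XBP1. The ER stress response element was in 0.11% of 25505 promoters and in 7 of the 14 promoters of the ER chaperone arm (Hspa5, Hsp90b1, Dnajc3, Pdia6, Creld2, Calr and Canx), and in 0 of the other 25. The C/EBP-ATF element was in 3.97% of all promoters, in 4 of the 11 stress factors (Atf3, Ddit3, Chac1 and Vldlr), in 0 of the 10 genes of the amino acid arm and in 1 gene of the ER chaperone arm, Herpud1. The core TGACGTGG was in 0.674% of all promoters and in 0 of the 39. These counts hold for the starts used. Among the stress factors the start lay 34699 (Atf3), 5185 (Nupr1) and 528 (Vldlr) bases inside the deposited gene, and Atf3 and Vldlr are among the matches. In the amino acid arm the start lay 22278 (Psat1), 9490 (Slc3a2) and 8286 (Mthfd2) bases inside the deposited gene. In Asns it lay 465 bases outside the deposited gene. None of the matches to 1 of these sequences overlapped a match to another. Shown here are the ER stress response elements of Hspa5, Calr and Dnajc3, and the 250 bases before the start of Hsp90b1, which has 2 such elements, of Creld2, of Chac1, and of Herpud1, the gene of the ER chaperone arm with a C/EBP-ATF element. Herpud1, without a match to the form of the ER stress response element searched here, and Canx, with one, were the 2 genes of the arm not called with SSD in WT mice. Other forms of the element were not searched. Sequences run 5′ to 3′ along the strand of the gene, except that the 3 single sites are written in the orientation of the motif, and capitals mark the fixed letters of a match. Sites on the opposite strand have the letters of the motif reversed and complemented. A match is a run of letters, not a shown binding site.
Hspa5 site: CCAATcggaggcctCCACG
Calr site: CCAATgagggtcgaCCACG
Dnajc3 site: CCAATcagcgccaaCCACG
Hsp90b1, chr10:86541379-86541628, minus strand: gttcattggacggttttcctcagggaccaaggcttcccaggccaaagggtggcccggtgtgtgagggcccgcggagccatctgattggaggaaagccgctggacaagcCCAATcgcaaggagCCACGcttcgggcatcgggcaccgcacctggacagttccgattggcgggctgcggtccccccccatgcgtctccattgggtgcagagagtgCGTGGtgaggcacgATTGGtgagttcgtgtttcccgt
Creld2, chr15:88703563-88703812, plus strand: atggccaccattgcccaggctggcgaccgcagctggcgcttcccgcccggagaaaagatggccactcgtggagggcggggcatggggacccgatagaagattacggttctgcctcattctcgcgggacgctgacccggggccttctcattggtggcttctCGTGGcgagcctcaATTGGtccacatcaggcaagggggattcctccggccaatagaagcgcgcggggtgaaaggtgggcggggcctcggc
Chac1, chr2:119181439-119181688, plus strand: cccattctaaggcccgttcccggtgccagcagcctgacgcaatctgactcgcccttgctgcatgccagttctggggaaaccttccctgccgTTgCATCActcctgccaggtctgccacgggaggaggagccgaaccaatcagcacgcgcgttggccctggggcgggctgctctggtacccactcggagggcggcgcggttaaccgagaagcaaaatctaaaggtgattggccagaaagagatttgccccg
Herpud1, chr8:95112787-95113036, plus strand: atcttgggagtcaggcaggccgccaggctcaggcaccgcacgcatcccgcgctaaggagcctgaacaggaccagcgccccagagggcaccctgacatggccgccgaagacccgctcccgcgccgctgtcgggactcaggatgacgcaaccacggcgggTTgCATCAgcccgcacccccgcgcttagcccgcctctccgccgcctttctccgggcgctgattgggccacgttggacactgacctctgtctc
The Hspa5 match lay from -67 to -49 relative to the start, and the 2 Hsp90b1 matches lay from -142 to -124 and from -37 to -19. In Creld2 the match was at -90 to -72, in Chac1 at -160 to -152 and in Herpud1 at -93 to -85.

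The first comparison asked how SSD acted on the pathway in WT mice. On SSD the amino acid arm and the stress factors rose in WT livers and the ER chaperone arm fell. Of the 39 genes, 31 were called at an adjusted p under 0.05 (16 higher, 15 lower) with limma, where 34.9% of all 13091 genes tested were called (17.3% higher, 17.6% lower). Of the 14 genes of the ER chaperone arm 12 fell and 0 rose, at a median of -0.84 on the log2 scale and a range from -1.86 to 0.13. Of the 10 genes of the amino acid arm 7 rose and 1 fell (median 1.75, from -0.33 to 5.08), and of the 11 stress factors 9 rose and 1 fell (median 1.32). Of the 4 sensors 1 fell, Xbp1. The median over all genes tested was -0.00. In 27 of the 39 genes the 2 groups did not overlap, against 29% of all genes tested. When each mouse was scaled to the same total instead, the median of all genes moved by 0.34, and the split over all genes went from 2265 higher and 2303 lower to 6315 higher and 720 lower. The split within the pathway was then 8 higher and 0 lower of the amino acid arm and 1 higher and 10 lower of the ER chaperone arm, and the sensors Eif2ak3 and Atf6 were called higher. With the outlying mice left out, 11 genes of the ER chaperone arm were called lower (Dnajc3 lost) and 8 stress factors higher and 2 lower (Ppp1r15a lost, Ddit4 gained). In whole liver, fewer cells of a type and less RNA per cell cannot be told apart.

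In Klrk1-/- mice, of the 39 genes, 22 were called with SSD (13 higher, 9 lower), where 29.4% of all 12904 genes were called (13.4% higher, 16% lower). The amino acid arm had 7 genes higher and 0 lower (median 1.33, from -0.10 to 3.88), the stress factors 6 higher and 1 lower (median 0.84), the ER chaperone arm 0 higher and 8 lower (median -0.49, from -1.63 to 0.32), and no sensor was called. Scaled to equal totals, the median of all genes moved by 0.25, the split over all genes went from 1723 higher and 2067 lower to 4828 higher and 806 lower, and that of the 39 genes to 19 higher and 5 lower. The ER chaperone arm then had 1 gene higher and 4 lower, and the sensors Ern1 and Atf6 were called higher. In the deposited scaling this arm had 4 genes lower without SSD-fed Klrk1-/- replicate 3, 5 without SSD-fed Klrk1-/- replicate 1, and 11 without NCD-fed Klrk1-/- replicate 3, the 1 outlying mouse in this comparison, without which 2 stress factors in place of 1 were lower. With 4 against 3 mice, exact permutation cannot give a p under 0.0571.

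The comparisons of genotypes asked how Klrk1-/- and WT livers differed on each diet. On NCD the ER chaperone arm was lower in Klrk1-/- livers, with 13 of 14 genes called lower, 0 higher and a median of -0.70 (from -1.58 to -0.29). In 11 of the 14 the groups did not overlap, against 19.3% of all genes tested. Over the whole pathway 14 of 38 genes tested were called (1 higher, 13 lower), where 13.1% of all 12845 genes were called (6.41% higher, 6.66% lower). The 1 gene called higher was Trib3, and no gene of the amino acid arm was called (0 of 9 tested, median -0.14). Without NCD-fed WT replicate 1 the count for the ER chaperone arm was 7, and without NCD-fed WT replicate 2, NCD-fed Klrk1-/- replicate 2 or replicate 3 it was 9 in each case. With the 3 outlying mice left out it was 7, with a median of -0.48. NCD-fed WT replicate 1 is high and NCD-fed Klrk1-/- replicate 3 low in this arm, so leaving them out narrows the difference by construction. The 7 that stayed called in that setting were Creld2, Dnajb9, Dnajc3, Hsp90b1, Hspa5, Pdia4 and Sel1l.

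On SSD 6 of the 39 genes were called, all lower in Klrk1-/- mice, where 2.9% of all 13116 genes were called (1.22% higher, 1.68% lower). They were Atf3 and Chac1 of the stress factors, Phgdh of the amino acid arm and Hspa5, Dnajb9 and Creld2 of the ER chaperone arm. All 14 genes of the ER chaperone arm had values below 0 (median -0.45, from -0.997 to -0.11), and 8 of them had groups that did not overlap, against 17.9% of all genes tested. The other lists were low as well, with 8 of 10 values below 0 in the amino acid arm (median -0.58, 6 of 10 without overlap) and 9 of 11 in the stress factors (median -0.34, 4 of 11 without overlap). The ER chaperone arm's 3 calls were 0 without SSD-fed WT replicate 2, SSD-fed WT replicate 3, SSD-fed Klrk1-/- replicate 1 or replicate 3, 1 without SSD-fed Klrk1-/- replicate 2, and 7 without SSD-fed WT replicate 1, the 1 outlying mouse in this comparison, when the amino acid arm and the stress factors had 4 calls each. At equal totals, which moved the median of all genes by -0.12, there were 8, as by DESeq2. Atf3 and Chac1 were called in every setting tried.

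The last comparison asked whether SSD acted differently in the 2 genotypes. The interaction was called for 1 of the 39 genes, Atf3, where 0.88% of all 13068 genes were called (0.321% higher, 0.559% lower). The ER chaperone arm had a median of 0.32 and 14 of 14 values above 0. The stress factors had a median of -0.78 with 10 of 11 values below 0, and the amino acid arm a median of -0.31 with 7 of 10 below 0. With the 3 outlying mice left out the median of the ER chaperone arm was -0.00, with 7 values above 0 and 7 below, that of the stress factors was -0.48 (2 called) and that of the amino acid arm -0.29 (1 called). Leaving out these mice lowers the interaction of the ER chaperone arm by construction, as it narrows the genotype difference on NCD.

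**Figure D1:**
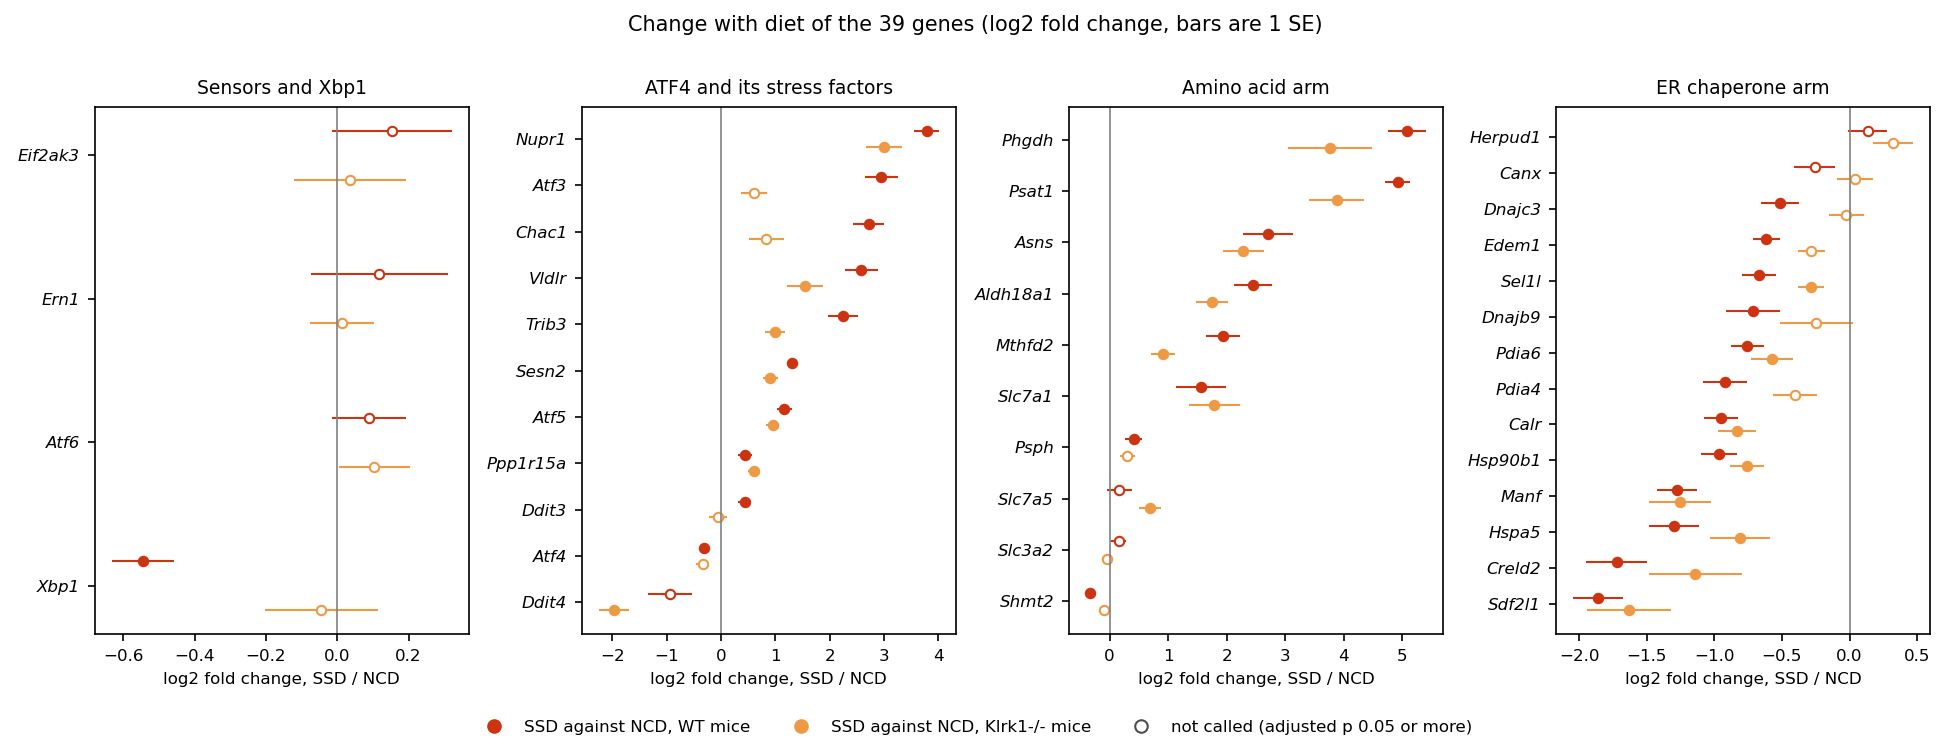
Log2 fold change with diet (SSD over NCD, horizontal axis, on the scale of log2(normalized count + 1)) of the 39 genes, in WT mice (red, 5 against 4 mice) and Klrk1-/- mice (orange, 3 against 4 mice), in 4 panels by role, each with its own axis. Points are estimates, bars are 1 SE, and open points had an adjusted p of 0.05 or more. The called points of the ER chaperone arm all lie below 0, and those of the amino acid arm lie above 0 but for Shmt2.

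In the deposited scaling Xbp1 was called for diet in WT mice, and Eif2ak3, Ern1 and Atf6 were not called in any comparison. At equal totals Eif2ak3 (adjusted p = 0.0377) and Atf6 (adjusted p = 0.0064) were called higher with SSD in WT mice, and Ern1 (adjusted p = 0.0345) and Atf6 (adjusted p = 0.0283) in Klrk1-/- mice. Eif2ak3, the kinase that leads to ATF4, had 568, 611, 441 and 404 in NCD-fed WT, 765, 431, 502, 532 and 596 in SSD-fed WT, 429.7, 348, 299.7 and 485 in NCD-fed Klrk1-/- and 414, 434 and 339 in SSD-fed Klrk1-/- mice. The ranges of the 4 groups all overlapped, and the log2 fold change with SSD was 0.15 (SE 0.17, adjusted p = 0.508) in WT and 0.04 (adjusted p = 0.885) in Klrk1-/- mice. Ern1, the endonuclease that splices Xbp1, had 1135, 1729.7, 1335 and 1111 in NCD-fed WT, 1141, 1074, 1518, 1437 and 2137 in SSD-fed WT, 1219, 1446, 1479.9 and 1354 in NCD-fed Klrk1-/- and 1339, 1323 and 1494 in SSD-fed Klrk1-/- mice. The Klrk1-/- mice lay within the range of the WT mice, and with SSD the log2 fold change of Ern1 was 0.12 (adjusted p = 0.668) in WT and 0.01 (adjusted p = 0.928) in Klrk1-/- mice. Atf6 had 1255, 1372, 1028 and 1067 in NCD-fed WT, 1261, 1181, 1293, 1116 and 1401 in SSD-fed WT, 1083, 985, 822 and 878 in NCD-fed Klrk1-/- and 986, 1009 and 1026 in SSD-fed Klrk1-/- mice. On SSD the genotypes did not overlap (-0.31, SE 0.09, adjusted p = 0.0813; exact permutation p = 0.0357, the smallest possible with 5 against 3 mice), and Atf6 was called lower there at equal totals and by DESeq2. On NCD the model of all 4 groups called Atf6 lower in Klrk1-/- mice, and the replicate block called Eif2ak3.

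Xbp1 was the 1 sensor called for diet in WT mice in the deposited scaling. It had 7833, 7116, 7135 and 7625 in NCD-fed WT mice, and 4636, 4873, 5716, 4846 and 5432 in SSD-fed WT mice. Every SSD-fed WT mouse was below every NCD-fed WT mouse, a fall of 0.55 on the log2 scale, or 1.46-fold (SE 0.09, adjusted p = 0.000716; exact permutation p = 0.0159). Klrk1-/- mice had 4868, 7109, 4187 and 6433 of Xbp1 on NCD and 5049, 5923 and 5141 on SSD, so that these groups overlapped (-0.04, adjusted p = 0.861). On NCD Klrk1-/- mice lay below WT mice with no overlap, their highest at 7109 and the lowest WT mouse at 7116 (-0.43, SE 0.14, adjusted p = 0.0651; exact permutation p = 0.0286), and 4 of 18 alternatives called the difference. The interaction for Xbp1 was 0.50 (SE 0.19, adjusted p = 0.192).

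Atf4 mRNA itself did not rise with SSD. Atf4 (chromosome 15, 80139385 to 80141742) had 3093, 2779.9, 3267 and 3258 in NCD-fed WT, 2560.1, 2261, 2307, 2892 and 2551 in SSD-fed WT, 2881, 3556, 3049 and 3625 in NCD-fed Klrk1-/- and 2604, 3020.3 and 2174 in SSD-fed Klrk1-/- mice. The highest SSD-fed WT mouse lay above the lowest NCD-fed WT mouse, so the groups overlapped by 1 mouse on each side. Atf4 fell by 0.30 in WT mice (SE 0.09, adjusted p = 0.0242), but at equal totals it was 0.04 higher (adjusted p = 0.733), and the call was lost without NCD-fed WT replicate 3 or 5 or SSD-fed WT replicate 2 or 3. The change in Klrk1-/- mice was -0.34 (SE 0.12, adjusted p = 0.0507), called lower in 7 of 17 alternatives. Between genotypes Atf4 differed by 0.08 on NCD (adjusted p = 0.624) and 0.04 on SSD (adjusted p = 0.869).

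The stress factors with the highest fold changes with SSD in WT mice were Nupr1, Atf3 and Chac1, of which Nupr1 alone was also called in Klrk1-/- mice. Nupr1, a small chromatin protein induced by stress, had 26.5, 18.1, 36.5 and 37.5 in NCD-fed WT and 509.5, 432, 279, 469.9 and 386 in SSD-fed WT mice. It had 47.1, 24.9, 46.0 and 17.2 in NCD-fed Klrk1-/- and 187, 347 and 261 in SSD-fed Klrk1-/- mice. Each SSD group lay wholly above each NCD group, with a log2 fold change of 3.79 (13.8-fold, SE 0.23, adjusted p = 3.9e-07) in WT and 3.01 (8.03-fold, SE 0.33, adjusted p = 5.1e-05) in Klrk1-/- mice. On SSD the genotypes differed by -0.66 (SE 0.22, adjusted p = 0.126).

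Atf3, a transcription factor of the same family as ATF4 that is induced by many stresses, rose with SSD in WT mice and was lower in Klrk1-/- than in WT mice on SSD. Atf3 (chromosome 1, 190902493 to 190950236) had 36.2, 22.2, 44.3 and 33.1 in NCD-fed WT and 601, 204, 202, 239.8 and 209 in SSD-fed WT mice. It had 21.8, 23.6, 24.9 and 23.4 in NCD-fed Klrk1-/- and 48.3, 36.9 and 26.6 in SSD-fed Klrk1-/- mice. The SSD-fed WT mice were all at 202 or above, and every other mouse was at 48.3 or below. The rise in WT was 2.96 (7.76-fold, SE 0.31, adjusted p = 3.53e-05), the change in Klrk1-/- mice was 0.61 (1.53-fold, no overlap, SE 0.24, adjusted p = 0.0815; called at equal totals and without SSD-fed Klrk1-/- replicate 3), and on SSD Klrk1-/- mice were 7.08-fold lower than WT mice (log2 fold change -2.82, SE 0.35, adjusted p = 0.00497). The interaction was -2.35 (SE 0.43, adjusted p = 0.0166), between 0.000573 and 0.0581 over the alternatives, and it was lost without SSD-fed Klrk1-/- replicate 3. Cd68, 1 of the 5 macrophage markers, went the same way, with -1.36 between genotypes on SSD (adjusted p = 0.0135) and an interaction of -1.57 (adjusted p = 0.0107), while none of the other 4 was called in either; their part in the result was not tested.

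Chac1, which degrades glutathione and is a target of ATF4, ATF3 and CHOP, showed a similar order of groups. It had 124, 35.2, 75.6 and 102 in NCD-fed WT, 568, 492, 483, 421 and 603 in SSD-fed WT, 85.0, 152, 53.5 and 132 in NCD-fed Klrk1-/- and 130.4, 249.8 and 165 in SSD-fed Klrk1-/- mice. The SSD-fed WT mice stood above all others, and the 2 Klrk1-/- groups overlapped. Chac1 rose 6.6-fold in WT mice (2.72, SE 0.29, adjusted p = 3.46e-05), and the change in Klrk1-/- mice was 0.84 (1.79-fold, SE 0.32, adjusted p = 0.0692; called at equal totals, with the replicate block and without NCD-fed Klrk1-/- replicate 2). On SSD it was 2.89-fold lower in Klrk1-/- than in WT mice (-1.53, SE 0.19, adjusted p = 0.00547). The interaction was -1.89 (SE 0.49, adjusted p = 0.0789), between 0.0048 and 0.205 over the alternatives.

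Ddit3, which encodes the death-promoting factor CHOP, had 262, 271, 269 and 318 in NCD-fed WT, 403, 346, 310.3, 414 and 429 in SSD-fed WT, 246, 228, 231 and 226 in NCD-fed Klrk1-/- and 206, 311 and 176 in SSD-fed Klrk1-/- mice. The SSD-fed WT group was highest, but its lowest mouse was below the highest NCD-fed WT mouse. Ddit3 rose 1.35-fold in WT mice (0.44, SE 0.12, adjusted p = 0.0133). Its change in Klrk1-/- mice was -0.05 (SE 0.16, adjusted p = 0.833), which became 0.20 at equal totals. Between genotypes Ddit3 differed by -0.75 on SSD (SE 0.18, adjusted p = 0.0567; called in 6 of 18 alternatives) and by -0.26 on NCD (adjusted p = 0.11), where the groups did not overlap. Ddit3 lies opposite Mars1, whose mean normalized count was 1939.6, and no source used here gives the strand setting of the counting, so reads of the 2 genes may not be separated.

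Trib3, a pseudokinase that restrains ATF4 and CHOP, was the only gene of the pathway called higher in Klrk1-/- mice on NCD with all mice kept. It had 115, 94.6, 71.7 and 93.8 in NCD-fed WT, 959.9, 343, 324, 419 and 378 in SSD-fed WT, 195, 128, 243 and 164 in NCD-fed Klrk1-/- and 426, 308 and 340.3 in SSD-fed Klrk1-/- mice. On NCD the Klrk1-/- mice were all above the WT mice (1.91-fold, 0.93, SE 0.20, adjusted p = 0.0108; exact permutation p = 0.0286). With SSD it rose 4.74-fold in WT (2.25, SE 0.28, adjusted p = 0.000109) and 1.99-fold in Klrk1-/- mice (0.99, SE 0.19, adjusted p = 0.00268), and on SSD the genotypes overlapped (-0.32, adjusted p = 0.571).

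Other stress factors rose in both genotypes. Atf5, a further factor of this family that is also controlled at translation, had 7423, 9121, 9719 and 7085 in NCD-fed and 17791, 14964 and 15416 in SSD-fed Klrk1-/- mice. It rose 2.25-fold in WT (1.17, SE 0.14, adjusted p = 7.49e-05) and 1.94-fold in Klrk1-/- mice (0.95, SE 0.12, adjusted p = 0.000148), with no overlap between 7085 to 9719 on NCD and 14604 to 24167 on SSD. Sesn2, which signals to the mTORC1 pathway, had 168, 206, 209.9 and 179 in NCD-fed WT, 460.3, 487, 425, 509.9 and 493 in SSD-fed WT, 244, 163, 199 and 196 in NCD-fed Klrk1-/- and 416, 326 and 385 in SSD-fed Klrk1-/- mice. All 8 SSD-fed mice were above all 8 NCD-fed mice, Sesn2 rising 2.49-fold in WT (1.32, SE 0.10, adjusted p = 3.23e-06) and 1.88-fold in Klrk1-/- mice (0.91, SE 0.14, adjusted p = 0.000649). Vldlr, a lipoprotein receptor whose mRNA ATF4 raises in liver, had 10.9, 17.1, 9.12 and 13.2 in NCD-fed WT and 132, 107, 71.4, 49.7 and 59.6 in SSD-fed WT mice, a 6-fold rise (2.58, SE 0.30, adjusted p = 7.56e-05). Klrk1-/- mice went from 11.5, 26.1, 33.6 and 35.7 to 76.3, 67.5 and 77.1, a 2.91-fold rise (1.54, SE 0.33, adjusted p = 0.00494). On NCD Vldlr was 0.95 higher in Klrk1-/- than in WT mice (SE 0.37, adjusted p = 0.1), with groups that overlapped, and it was called there without NCD-fed Klrk1-/- replicate 1. Ppp1r15a, the stress-induced subunit that directs dephosphorylation of eIF2 alpha, rose by 0.44 (adjusted p = 0.0231) in WT and 0.60 (adjusted p = 0.00199) in Klrk1-/- mice, and its call in WT was lost without NCD-fed WT replicate 1 or 2 or SSD-fed WT replicate 4.

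Ddit4, an mTORC1 inhibitor that responds to several stresses, was, with Atf4, 1 of the 2 stress factors with values below 0 for SSD in WT mice, and the 1 called lower in Klrk1-/- mice. It had 836, 322, 418 and 381 in NCD-fed Klrk1-/- mice and 158, 90.7 and 107 in SSD-fed Klrk1-/- mice, a 3.92-fold fall (-1.97, SE 0.28, adjusted p = 0.000389). In WT mice it spread from 442 to 1380.4 on NCD and from 236 to 863 on SSD and was not called (-0.94, SE 0.40, adjusted p = 0.0849), but it was called without SSD-fed WT replicate 1, the mouse with 863. On SSD the Klrk1-/- mice were all below the WT mice (3.1-fold, -1.63, SE 0.38, adjusted p = 0.0522), a difference called in 7 of 18 alternatives.

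**Figure D2:**
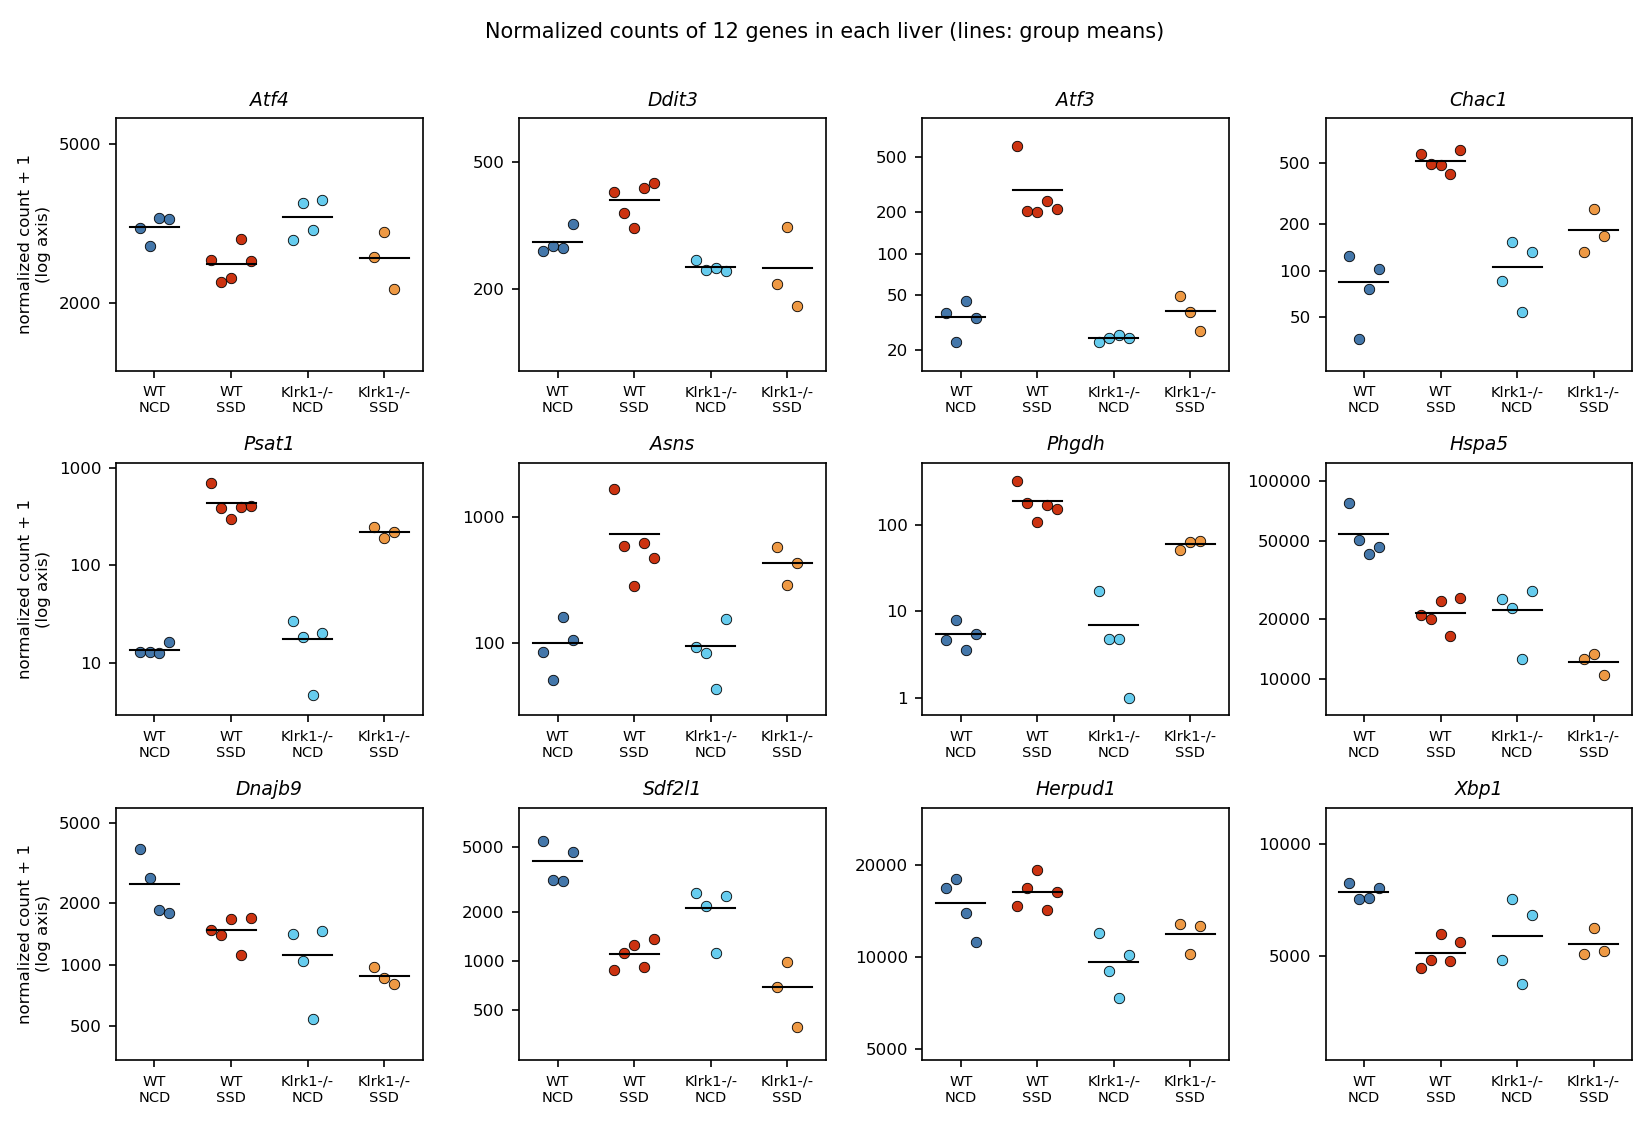
Normalized count + 1 (vertical axis, log scale, a separate range in each panel) of 12 genes in each of the 16 mice, by genotype and diet. Points are mice and lines are group means. Atf3 and Chac1 are higher in every SSD-fed WT mouse than in any other mouse, Psat1, Asns and Phgdh are high in both SSD groups, and Hspa5 and Sdf2l1 have their highest group mean in NCD-fed WT and their lowest in SSD-fed Klrk1-/- mice.

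In the amino acid arm Psat1 and Phgdh, enzymes of serine synthesis, had the highest fold changes with SSD in both genotypes. Psat1, which makes phosphoserine, had 12.1, 12.1, 11.7 and 15.4 in NCD-fed WT, 694, 383, 294, 393 and 406 in SSD-fed WT, 26.4, 17.4, 3.73 and 19.7 in NCD-fed Klrk1-/- and 248, 189.5 and 220.3 in SSD-fed Klrk1-/- mice. Every SSD-fed mouse was above every NCD-fed mouse by a wide gap. Psat1 rose 30.3-fold in WT (4.92, SE 0.22, adjusted p = 2.86e-08) and 14.7-fold in Klrk1-/- mice (3.88, SE 0.47, adjusted p = 0.000115). On SSD the genotypes did not overlap, with Klrk1-/- lower by 0.93 (SE 0.23, adjusted p = 0.0606), between 0.00244 and 0.204 over the alternatives.

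Phgdh, which catalyses the first step of serine synthesis, had 3.62, 7.05, 2.61 and 4.41 in NCD-fed WT and 328, 178, 107, 169.7 and 154 in SSD-fed WT mice. Klrk1-/- mice had 16.1, 3.73, 3.73 and 0 on NCD and 50.2, 63.4 and 65.1 on SSD. Phgdh was at or under 3 reads in 2 of the 4 NCD-fed WT and 3 of the 4 NCD-fed Klrk1-/- mice, so its fold changes depend on the pseudocount of 1. The fold change in Klrk1-/- mice also depends on single NCD-fed mice, which ran from 0 to 16.1. Phgdh rose by 5.08 (SE 0.32, adjusted p = 5.65e-07) in WT and 3.77 (SE 0.72, adjusted p = 0.0024) in Klrk1-/- mice. On SSD it was 2.92-fold lower in Klrk1-/- than in WT mice (-1.55, SE 0.29, adjusted p = 0.0256), with no overlap. That call was lost in the model of all 4 groups and without SSD-fed WT replicate 2 or any 1 of the 3 SSD-fed Klrk1-/- mice.

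The last enzyme of the serine pathway, Psph, moved far less. It had 257, 165, 222 and 194 in NCD-fed WT and 309, 284, 222, 282 and 287 in SSD-fed WT mice, groups that overlapped (0.41, SE 0.14, adjusted p = 0.0408), a call lost in 7 of the 9 fits that each left out 1 mouse. Klrk1-/- mice had 185, 178, 141 and 150.1 on NCD and 212, 194 and 195 on SSD (0.30, adjusted p = 0.094). On SSD the genotypes did not overlap (-0.46, SE 0.12, adjusted p = 0.0686). Psph overlaps Cct6a on the opposite strand, with a mean of 2359.

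Asns, which makes asparagine and is a classical ATF4 target, had 84.4, 50.3, 160.3 and 106 in NCD-fed WT, 1673, 586, 285, 617 and 477 in SSD-fed WT, 93.1, 83.4, 42.3 and 156 in NCD-fed Klrk1-/- and 574, 292 and 429 in SSD-fed Klrk1-/- mice. The SSD groups overlapped each other and lay above both NCD groups. Asns rose 6.52-fold in WT (2.70, SE 0.43, adjusted p = 0.0007) and 4.86-fold in Klrk1-/- mice (2.28, SE 0.35, adjusted p = 0.000611), and on SSD the genotypes differed by -0.55 (adjusted p = 0.505).

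Aldh18a1, of proline synthesis, rose by 2.45 (adjusted p = 0.000194) in WT and 1.75 (adjusted p = 0.000821) in Klrk1-/- mice. Mthfd2, of mitochondrial folate metabolism, was between 51.9 and 71.7 in NCD-fed WT, 156 and 523 in SSD-fed WT, 38.6 and 63.2 in NCD-fed Klrk1-/- and 86.7 and 123 in SSD-fed Klrk1-/- mice, so that none of these groups overlapped across diets. It rose 3.83-fold in WT (1.94, SE 0.29, adjusted p = 0.000454) and 1.88-fold in Klrk1-/- mice (0.91, SE 0.20, adjusted p = 0.00613). Shmt2, the mitochondrial enzyme that takes serine into the folate cycle, was the 1 gene of the arm that fell in WT mice, from between 6444 and 6783 to between 4808 and 5514 (-0.33, SE 0.08, adjusted p = 0.00628), but at equal totals it was 0.02 higher (adjusted p = 0.867).

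The transporters of the arm differed among themselves. Slc7a1, a carrier of arginine and lysine, rose in WT (1.56, SE 0.43, adjusted p = 0.0148) and in Klrk1-/- mice (1.79, SE 0.43, adjusted p = 0.00926, lost without SSD-fed Klrk1-/- replicate 3). In 1 of the 4 NCD-fed Klrk1-/- mice Slc7a1 had 3 reads, so that its fold change there depends on the pseudocount. Slc7a5, which exchanges large neutral amino acids, was called in Klrk1-/- mice, where it went from 39.1, 36.1, 41.0 and 54.1 to 60.8, 69.1 and 77.1 (1.62-fold, 0.69, SE 0.19, adjusted p = 0.0184), a call lost without SSD-fed Klrk1-/- replicate 3. WT mice had 61.5, 59.4, 50.8 and 57.4 on NCD and 99.6, 49.0, 55.2, 53.3 and 75.1 on SSD (0.16, adjusted p = 0.582). On NCD it differed between genotypes by -0.43 (SE 0.18, adjusted p = 0.126). Slc7a5 lies opposite Galnt2l, with a mean of 806. Its partner Slc3a2 was not called in either genotype in the deposited scaling (0.15, adjusted p = 0.39 in WT), but at equal totals Slc3a2 was called higher with SSD in WT mice.

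In the ER chaperone arm NCD-fed WT mice had the highest group mean in 13 of 14 genes and SSD-fed Klrk1-/- mice the lowest in 12 of 14. Hspa5 (chromosome 2, 34661982 to 34667559) encodes BiP, the main chaperone of the ER, which also holds the 3 sensors inactive. It had 77003, 50519, 42581 and 46219.7 in NCD-fed WT, 21132, 20195, 24843, 16422 and 25532 in SSD-fed WT, 25335, 22890.3, 12618 and 27974 in NCD-fed Klrk1-/- and 12685, 13447 and 10514 in SSD-fed Klrk1-/- mice. The NCD-fed WT mice lay above all others and the SSD-fed WT and NCD-fed Klrk1-/- mice overlapped, as did the 2 Klrk1-/- groups. Hspa5 fell 2.46-fold with SSD in WT mice (-1.30, SE 0.19, adjusted p = 0.000315) and 1.75-fold in Klrk1-/- mice (-0.81, SE 0.22, adjusted p = 0.0179). Klrk1-/- mice were 2.47-fold lower than WT on NCD (-1.31, SE 0.23, adjusted p = 0.00486) and 1.76-fold lower on SSD (-0.81, SE 0.15, adjusted p = 0.0257). Neither group pair of the genotypes overlapped. The call on SSD was lost without SSD-fed WT replicate 2 or 3 or any 1 of the 3 SSD-fed Klrk1-/- mice, and that of SSD in Klrk1-/- mice without SSD-fed Klrk1-/- replicate 3 and at equal totals.

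Hsp90b1 encodes GRP94, the HSP90 of the ER. It had 36783, 27942, 27161 and 32904 in NCD-fed WT, 16080.2, 14300.0, 18605, 13184 and 17674 in SSD-fed WT, 20716, 20390.5, 15995 and 22445 in NCD-fed Klrk1-/- and 10566, 13575 and 11024 in SSD-fed Klrk1-/- mice. Every NCD-fed mouse of a genotype lay above every SSD-fed mouse of that genotype, with a fall of 0.97 (adjusted p = 0.00027) in WT and 0.76 (adjusted p = 0.00107) in Klrk1-/- mice. On NCD it was 0.65 lower in Klrk1-/- mice (-0.65, SE 0.13, adjusted p = 0.00873), and on SSD the value was -0.44 (adjusted p = 0.101).

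Sdf2l1, which assists BiP, showed the largest fall of the arm with SSD in both genotypes. It had 5432, 3128, 3105 and 4655 in NCD-fed WT, 883, 1116, 1247, 911 and 1355 in SSD-fed WT, 2618, 2174, 1111 and 2498 in NCD-fed Klrk1-/- and 688, 979 and 393 in SSD-fed Klrk1-/- mice. Neither diet pair overlapped. The falls were 3.64-fold (-1.86, SE 0.18, adjusted p = 2.16e-05) in WT and 3.1-fold (-1.63, SE 0.31, adjusted p = 0.00255) in Klrk1-/- mice. Between genotypes it was lower in Klrk1-/- mice on NCD (-0.99, SE 0.25, adjusted p = 0.0246), with -0.76 (adjusted p = 0.124) on SSD. The NCD call of Sdf2l1 was lost without NCD-fed WT replicate 1 and without the 3 outlying mice.

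Manf, a secreted ER protein that binds BiP, fell 2.43-fold (-1.28, SE 0.15, adjusted p = 7.48e-05) in WT and 2.39-fold (-1.26, SE 0.23, adjusted p = 0.00188) in Klrk1-/- mice. Its values were 10458, 6511, 6347 and 7919 in NCD-fed WT, 2947, 2947, 3729, 2729 and 3519.8 in SSD-fed WT, 5283, 5179, 2931 and 5351 in NCD-fed Klrk1-/- and 1953, 2586 and 1371 in SSD-fed Klrk1-/- mice, with no overlap between diets within a genotype. On NCD Manf was called lower in Klrk1-/- mice. That call was lost without NCD-fed WT replicate 1, without NCD-fed Klrk1-/- replicate 3 and without the 3 outlying mice. Manf overlaps Rbm15b on the same strand, with a mean of 402, and Dcaf1 on the opposite strand, with a mean of 595. Creld2, an ER protein with disulfide isomerase activity, had 7317, 3921, 3495 and 5546 in NCD-fed WT, 1157, 1447, 2041, 1134 and 1765 in SSD-fed WT, 2303, 2066, 688 and 2124 in NCD-fed Klrk1-/- and 686, 959 and 605 in SSD-fed Klrk1-/- mice. On NCD it was 2.99-fold lower in Klrk1-/- mice (-1.58, SE 0.33, adjusted p = 0.0113), and on SSD 2-fold lower (-0.997, SE 0.21, adjusted p = 0.0387). The SSD call of Creld2 was lost in the model of all 4 groups and without SSD-fed WT replicate 2 or 3 or any 1 of the 3 SSD-fed Klrk1-/- mice. For diet Creld2 was called lower with SSD in both genotypes, but the Klrk1-/- groups overlapped. The diet call in Klrk1-/- mice was lost at equal totals and without NCD-fed replicate 1, 2 or 4 or SSD-fed replicate 1 or 3.

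Calr encodes calreticulin, a lectin chaperone that folds glycoproteins. It had 51382, 38849.6, 36628 and 44059 in NCD-fed WT and 35939, 32748, 31310.5 and 39529 in NCD-fed Klrk1-/- mice. Calr went from between 36628 and 51382 to between 19569.9 and 24842 with SSD in WT (1.93-fold lower, -0.95, SE 0.13, adjusted p = 0.000207) and from between 31310.5 and 39529 to between 15449.6 and 23708 in Klrk1-/- mice (1.78-fold lower, -0.84, SE 0.14, adjusted p = 0.00109). Calr was the 1 gene of the arm not called between genotypes on NCD (-0.29, SE 0.13, adjusted p = 0.142). Its membrane-bound relative Canx went the other way round, with no call for diet (-0.26, adjusted p = 0.203 in WT) and a lower value in Klrk1-/- mice on NCD (-0.60, SE 0.16, adjusted p = 0.0294), lost without any 1 of NCD-fed WT replicates 1 and 2 and NCD-fed Klrk1-/- replicates 2 and 3. Herpud1, a membrane protein of ER-associated degradation, had 16765, 18021, 13924 and 11171 in NCD-fed WT and 14633, 16857, 19254, 14216 and 16299.8 in SSD-fed WT mice, which overlapped (0.13, SE 0.15, adjusted p = 0.505; called higher at equal totals). On NCD Herpud1 was lower in Klrk1-/- mice (-0.64, SE 0.16, adjusted p = 0.0265), with the same 4 mice each needed for the call. Canx and Herpud1 are named here because they were the exceptions of the arm for diet in WT mice, after their values were seen.

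Pdia4, a protein disulfide isomerase, was lower in Klrk1-/- mice on NCD by 2.12-fold. It had 15102, 10897, 8785 and 10376 in NCD-fed WT and 5718, 5348, 3689 and 6604 in NCD-fed Klrk1-/- mice, which did not overlap (-1.08, SE 0.18, adjusted p = 0.00328; exact permutation p = 0.0286), and the call held in each of the 18 alternatives. Sel1l, the scaffold of the HRD1 ubiquitin ligase that drives ER-associated degradation, had 5508, 5159, 4223 and 4679 in NCD-fed WT and 3229, 3062, 2822 and 3629 in NCD-fed Klrk1-/- mice, 1.53-fold lower (-0.62, SE 0.11, adjusted p = 0.0037), also in each of the 18 alternatives. Sel1l fell with SSD by 0.67 in WT (adjusted p = 0.00187) and 0.28 in Klrk1-/- mice (adjusted p = 0.0422), and the latter call was lost in 10 of 17 alternatives. Dnajb9, a cochaperone of BiP that keeps IRE1 inactive, had 3699.9, 2661, 1852 and 1792 in NCD-fed WT, 1478, 1395, 1675, 1118 and 1688 in SSD-fed WT, 1415, 1040.2, 541 and 1464 in NCD-fed Klrk1-/- and 974, 861 and 804 in SSD-fed Klrk1-/- mice. It was 2.3-fold lower in Klrk1-/- mice on NCD (-1.20, SE 0.29, adjusted p = 0.0204; lost without NCD-fed WT replicate 1 or 2) and 1.66-fold lower on SSD (-0.73, SE 0.13, adjusted p = 0.024), with the SSD call lost in the same model and without the same mice as that of Creld2. In WT mice Dnajb9 fell with SSD by 0.72 (SE 0.20, adjusted p = 0.0164), a call not kept at equal totals or with the replicate block, and Klrk1-/- mice had -0.24 (adjusted p = 0.531).

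Dnajc3, Pdia6 and Edem1 complete the arm. Dnajc3 encodes P58IPK, a cochaperone of BiP. It fell by 0.51 with SSD in WT mice (adjusted p = 0.015) and was lower in Klrk1-/- mice on NCD (-0.76, SE 0.15, adjusted p = 0.00933), with -0.02 for SSD in Klrk1-/- mice (adjusted p = 0.911). Its call for diet was lost at equal totals, with the replicate block and without the 3 outlying mice, and its call for genotype on NCD was kept in 18 of 18 alternatives. The disulfide isomerase gene Pdia6 fell by 0.76 with SSD in WT mice (adjusted p = 0.000726) and by 0.57 in Klrk1-/- mice (adjusted p = 0.0158), and on NCD the genotypes differed by -0.63 (adjusted p = 0.0226). The NCD call of Pdia6 was lost without NCD-fed WT replicate 1 or 2, without NCD-fed Klrk1-/- replicate 2 and without the 3 outlying mice, and its call for diet in Klrk1-/- mice at equal totals and without SSD-fed Klrk1-/- replicate 1 or 3. Edem1, which draws misfolded glycoproteins out of folding cycles, fell by 0.62 with SSD in WT mice (adjusted p = 0.000854) and was lower in Klrk1-/- mice on NCD (-0.44, SE 0.10, adjusted p = 0.0173), with -0.28 for SSD in Klrk1-/- mice (adjusted p = 0.0549). The NCD call of Edem1 was lost without NCD-fed Klrk1-/- replicate 2 or 3 and without the 3 outlying mice.

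**Figure D3:**
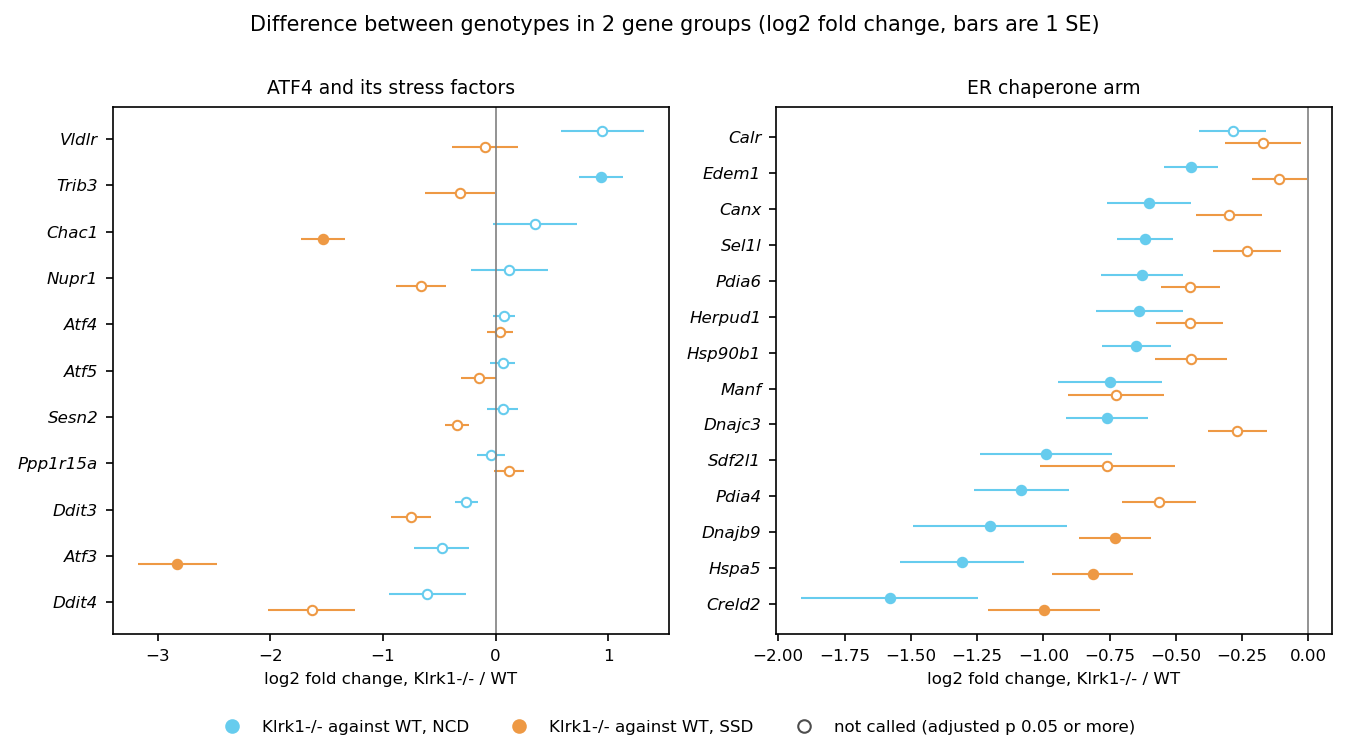
Log2 fold change between genotypes (Klrk1-/- over WT, horizontal axis, on the scale of log2(normalized count + 1)) of the 11 stress factors and the 14 genes of the ER chaperone arm, on NCD (light blue, 4 against 4 mice) and on SSD (orange, 3 against 5 mice), each panel with its own axis. Points are estimates, bars are 1 SE, and open points had an adjusted p of 0.05 or more. In the ER chaperone arm every point is below 0, whereas among the stress factors Trib3 is called above 0 on NCD and Atf3 and Chac1 are called below 0 on SSD.

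The 2 arms were then set side by side in each mouse as the mean log2(normalized count + 1) over the genes of an arm, as a description with no test. The amino acid arm was 6.404 ± 0.051 in NCD-fed WT (SD, n = 4), 8.31 ± 0.49 in SSD-fed WT (n = 5), 6.16 ± 0.28 in NCD-fed Klrk1-/- (n = 4) and 7.68 ± 0.14 in SSD-fed Klrk1-/- mice (n = 3). The SSD-fed mice were all at 7.52 or above and the NCD-fed mice all at 6.45 or below. The ER chaperone arm was 13.17 ± 0.26 in NCD-fed WT, 12.28 ± 0.21 in SSD-fed WT, 12.35 ± 0.36 in NCD-fed Klrk1-/- and 11.78 ± 0.15 in SSD-fed Klrk1-/- mice. Here the SSD-fed WT and the NCD-fed Klrk1-/- mice overlapped, from 12.03 to 12.51 and from 11.82 to 12.61. With SSD the amino acid arm rose by 1.91 and the ER chaperone arm fell by 0.89 in WT mice, and by 1.52 and 0.56 in Klrk1-/- mice. Between genotypes on NCD the amino acid arm differed by -0.24 and the ER chaperone arm by -0.82. The difference between the arms thus moved by 2.79 with SSD in WT mice, by 2.09 in Klrk1-/- mice, by 0.58 between genotypes on NCD and by -0.13 between genotypes on SSD. The last value turned to 0.11 without SSD-fed WT replicate 1 and to 0.02 without SSD-fed Klrk1-/- replicate 2.

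**Figure D4:**
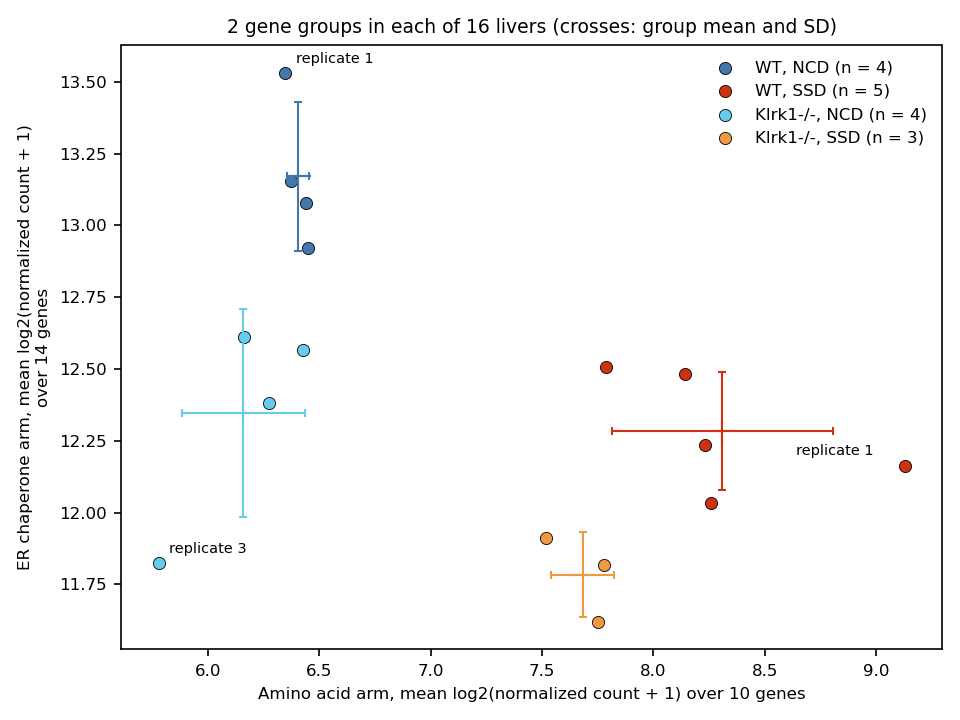
Mean log2(normalized count + 1) of the 10 genes of the amino acid arm (horizontal axis) against that of the 14 genes of the ER chaperone arm (vertical axis) in each of the 16 mice. Points are mice, crosses are the group mean ± SD, and the 3 mice marked by their replicate number are those left out together as outlying. Diet separates the mice along the horizontal axis, and the NCD-fed WT mice are the highest on the vertical axis.

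In the deposited scaling the fall of the ER chaperone arm with SSD went with lower counts of hepatocyte markers. Of the 5 hepatocyte markers, 2 fell with SSD in WT mice, where 17.6% of all genes were called lower, and 3 in Klrk1-/- mice, where 16% were, and their summed normalized count was between 2125040 and 2444890 in NCD-fed WT, 1398660 and 1790550 in SSD-fed WT, 2072040 and 2808810 in NCD-fed Klrk1-/- and 1896970 and 2052100 in SSD-fed Klrk1-/- mice. Normalized totals over all genes were also lower on SSD, so these sums are not shares of a total. The totals were between 25001171 and 27985228 in NCD-fed WT and 19222033 and 21373610 in SSD-fed WT mice. In Klrk1-/- mice they were between 25522136 and 27892992 on NCD and 21861121 and 22666465 on SSD. Between genotypes 0 of the 5 hepatocyte markers were called on either diet. B and plasma cells, which also carry a large ER, had 1 of 3 tested markers called lower with SSD in each genotype and 1 of 4 called higher in Klrk1-/- mice on NCD, where the ER chaperone arm was lower. On NCD 1 of 4 endothelial markers was also called higher and 1 of 4 cholangiocyte markers lower in Klrk1-/- mice. In that comparison 6.41% of all genes were called higher and 6.66% lower. The part of these cell types in the results was not tested.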

How the data were processed

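RNA of whole liver was sequenced from 16 mice with 1 library per mouse, and no source used here names technical repeats, so p-values measure the spread between these mice. The labels name an mRNA library kit and the study's methods a total RNA kit. Per the labels and methods, the authors made single reads of 100 bases, ran FastQC, used STAR with the genome build GRCm39, counted reads per gene by featureCounts with GENCODE M26 (strand setting not given in the sources used here), and their processing notes name DESeq2. They deposited a signal per gene and mouse, the read count divided by 1 factor per mouse. In every mouse 100% of the values are whole multiples of 1 step (tolerance 0.01), which gave back the reads.

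Log2(normalized count + 1) was fitted with limma 3.58.1 in R 4.3.3 (trend method, only the groups compared in each model, all 16 mice for the interaction). A gene entered a model if its mean over that model's mice was 10 or more. Benjamini-Hochberg adjustment ran over every gene in the model, and calls used an adjusted p under 0.05 with no fold limit. Exact permutation of mice between groups, two-sided, was run for each member. Fold changes are on the log2(value + 1) scale and understate those of low genes. The arms were described by counts, medians and means per mouse, with no test. Alternatives were pseudocounts of 0.5 and 10, no minimum mean or a minimum of 50, equal totals, edgeR 4.0.16 and DESeq2 1.42.0 on the recovered reads, a fold limit of 1.5, a replicate block, 1 model of all 4 groups, and each mouse left out. Leaving out 3 outlying mice together was added after seeing the data, and the mice were picked from their values. The scripts were tested on simulated data.

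The members, lists, markers and tests were chosen with earlier results of these data known. The genes named are Atf4, Eif2ak3, Ern1, Atf6, Xbp1, Ddit3 and Hspa5 and, in each comparison of groups, the 2 genes of the amino acid arm, of the ER chaperone arm and of the stress factors with the smallest p, with called genes of the interaction. Other members named illustrate a role, a count or an exception and were chosen after their values were seen. No source used here says that same-numbered mice of different groups were paired. Correlations of their deviations ran from -0.146 to 0.237, which cannot settle whether they were matched. Promoters came from the GRCm39 genome with GENCODE M39, and gene coordinates from the deposited table on the same build.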

Additional observations from a re-analysis of the deposited data

Results flagged for a closer look

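Among 78 sets of values (26 named genes in the 3 groups of 4 or 5 mice), 7 held 1 mouse far from the others of its group, where chance gives about 1 in 20. Of these, 4 were high values of SSD-fed WT replicate 1, which had 694 of Psat1 against 294 to 406 in the other 4 mice, 1673 of Asns against 285 to 617, 959.9 of Trib3 against 324 to 419 and 600.5 of Atf3 against 202 to 239.8.

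In NCD-fed WT mice replicate 5 stood above the others, with 318 of Ddit3 against 262 to 271 and 15.4 of Psat1 against 11.7 to 12.1. In NCD-fed Klrk1-/- mice replicate 3 had 2931 of Manf against 5179 to 5351.

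The change of Atf3 with diet differed between the genotypes by the interaction term (log2 -2.35, limma), the only 1 of the 39 genes called in that test.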

How the results depend on the processing

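The counts of called genes with diet held, at 31 in WT mice (24 to 31 over the alternatives) and 22 in Klrk1-/- mice (17 to 26). Between genotypes they depended on single mice. On NCD the count of 14 was between 8 and 15 when 1 mouse was left out, 8 without NCD-fed WT replicate 1, and 8 with the 3 outlying mice left out. On SSD the count of 6 became 15 at equal totals, 19 by DESeq2, 15 with the 3 outlying mice left out and 2 to 15 with 1 mouse left out. For the interaction the count of 1 became 3 by DESeq2, 3 with the 3 outlying mice left out (as without NCD-fed Klrk1-/- replicate 3) and 0 to 3 with 1 mouse left out. The difference between the arms with SSD in Klrk1-/- mice was 1.73 with a pseudocount of 10, and between genotypes on SSD it was -0.31 to 0.11 with 1 mouse left out, reversing to 0.11 without SSD-fed WT replicate 1 and 0.02 without SSD-fed Klrk1-/- replicate 2. The cause was not tested.

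With the replicate block the counts were 28, 22, 16, 9 and 1 in the order of the comparisons above, and over all genes 4568 went to 2974 for diet in WT mice, 3790 to 3221 in Klrk1-/- mice, 1679 to 2357 between genotypes on NCD and 381 to 710 on SSD. For the interaction 115 went to 42. Whether the numbers pair the mice is not known. Over all genes, equal totals moved the count for diet in WT mice to 7035, edgeR gave 4599, 3824, 1727, 311 and 90, and DESeq2 gave 4937, 3820, 2237, 1220 and 460. The model of all 4 groups gave 957 between genotypes on SSD, and without the 3 outlying mice there were 597 on NCD, 717 on SSD and 74 for the interaction. With 1 mouse left out the counts were 3614 to 4460, 2397 to 3662, 717 to 2189, 45 to 717 and 37 to 187.

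Of 1789 values of named genes in 99 pairs of gene and comparison, 1641 kept direction and side of the threshold, 92 lost the threshold, 30 gained it and 26 reversed. At equal totals the reversed values were Atf4 (0.041 with diet in WT, -0.074 between genotypes on SSD), Ddit3 (0.20 with diet in Klrk1-/-), Shmt2 (0.016 with diet in WT) and Xbp1 (-0.039 between genotypes on SSD, 0.21 with diet in Klrk1-/-). With the replicate block they were Ern1 (-0.0022 between genotypes on NCD, 0.17 on SSD) and Xbp1 (0.029 with diet in Klrk1-/-), by edgeR Ddit3 (0.0028 with diet in Klrk1-/-), and without the 3 outlying mice Eif2ak3 (-0.082 with diet in Klrk1-/-) and Ern1 (-0.035 between genotypes on NCD). With 1 mouse left out, values on both sides of 0 were seen for diet in Klrk1-/- mice in Ddit3 (-0.29 to 0.12), Eif2ak3 (-0.082 to 0.15), Ern1 (-0.044 to 0.050) and Xbp1 (-0.18 to 0.077), for diet in WT mice in Ern1 (-0.031 to 0.25), and between genotypes in Ern1 on NCD (-0.0081 to 0.20) and on SSD (-0.13 to 0.11) and in Atf4 on SSD (-0.074 to 0.16). Of these pairs only Atf4 and Shmt2 with diet in WT mice were called in the scaling as deposited.

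Depth limits Phgdh, Psat1 and Slc7a1 on NCD, where some mice had 3 reads or fewer. Whole liver gives no cell types, mRNA counts give neither the ATF4 protein nor the Xbp1 splice forms, and with 3 SSD-fed Klrk1-/- mice 1 mouse can decide a call.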

Other observations

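Genes next to the 39 in the same pathways were taken from lists that were also chosen with results of these data known. Of all genes tested, 34.9% were called with diet in WT mice (17.3% higher, 17.6% lower), 29.4% in Klrk1-/- mice (13.4% higher, 16% lower), 13.1% between genotypes on NCD (6.41% higher, 6.66% lower) and 2.9% on SSD. Of 20 other ATF4 targets, 18 were tested with diet in WT mice and 10 rose and 3 fell. Fgf21, a hormone that liver secretes under metabolic stress, rose by 7.38 (SE 0.35, adjusted p = 5.55e-08, limma), from a group mean of 9.07 to 1589, and Mthfd1l of mitochondrial folate metabolism rose by 2.47 (adjusted p = 8.37e-06). Cth, which makes cysteine, fell by 1.41 (adjusted p = 5.16e-06). The 3 of 17 called between genotypes on NCD were Gdf15 and the amino acid transporters Slc38a2 (-0.71, adjusted p = 0.000633) and Slc6a9 (-0.65, adjusted p = 0.0458). In Klrk1-/- mice 10 rose and 4 fell of 19, with Fgf21 5.43 higher (group means 27.0 and 1019). On SSD 3 of 20 were lower in Klrk1-/- mice and 0 higher (median -0.41), Cebpb (-0.83, adjusted p = 0.0213), Pck2 (2.01-fold, adjusted p = 0.043) and Slc38a2 (-0.43, adjusted p = 0.0495). Gdf15, a secreted stress hormone, differed in its response to diet between the genotypes (interaction -2.77, SE 0.37, adjusted p = 0.0019). Its group means were 86.8 and 624 in WT mice and 288 and 297 in Klrk1-/- mice on NCD and SSD, and on NCD it was 1.75 higher in Klrk1-/- mice (adjusted p = 0.000773).

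Of 25 other folding and degradation factors of the ER, 16 fell and 1 rose with SSD in WT mice, among them Ppib, a prolyl isomerase (-0.999, adjusted p = 5.03e-05), Txndc11, a thioredoxin domain protein (-0.88, adjusted p = 9.16e-05), and Syvn1, the HRD1 ubiquitin ligase that works with Sel1l (-1.47, adjusted p = 0.000106). On NCD 13 were lower and 1 higher in Klrk1-/- mice, with Hyou1, an exchange factor of BiP, at -1.18 (adjusted p = 0.00227) and Syvn1 at -1.05 (adjusted p = 0.00342). In Klrk1-/- mice 11 fell and 1 rose with SSD, and between genotypes on SSD the adjusted p of the 25 ran from 0.0687 (Derl3) to 0.975 (Txndc11) in limma, with no call. The 1 gene higher both with SSD in WT mice and in Klrk1-/- mice on NCD was Crebrf, with 0.65 for diet in WT mice and 1.01 (adjusted p = 0.000263) between genotypes on NCD. Of 19 genes of the translocon and of export from the ER, 10 fell and 0 rose with SSD in WT mice, with Ssr1 (-0.55, adjusted p = 0.000801), Sec61g (-1.11, adjusted p = 0.00161) and Sec23b (-0.72, adjusted p = 0.00294) in the lead by p, and 5 fell and 0 rose in Klrk1-/- mice. Lower in Klrk1-/- mice on NCD were 3 of the 19, where 6.66% of all genes were called lower. They were Ssr3 (-0.59, adjusted p = 0.0174), Sec23b (-0.75, adjusted p = 0.0245) and Sec61a1 (-0.30, adjusted p = 0.044). Of 12 aminoacyl-tRNA synthetases, 4 rose and 2 fell in WT mice, led by p by Cars (0.46, adjusted p = 0.00525), Wars (-0.51, adjusted p = 0.00762) and Gars (0.43, adjusted p = 0.0157), 5 rose and 0 fell in Klrk1-/- mice, and Wars (-0.56), Aars (-0.30) and Iars (-0.45) were lower in Klrk1-/- mice on NCD. Of 8 kinases and phosphatases of eIF2 alpha and their partners, Eif2b5 fell in WT mice (-0.25, adjusted p = 0.044) and Ppp1r15b was lower in Klrk1-/- mice on NCD (-0.29, adjusted p = 0.0451), while Eif2ak1 rose with SSD in Klrk1-/- mice (0.35, adjusted p = 0.0171). 1 of 8 is no larger a share than that of all genes called in either direction in any of the 3. By direction, 17.6% of all genes fell in WT mice, 13.4% rose in Klrk1-/- mice and 6.66% were lower on NCD. Of 7 other ER stress sensors and proteases, Atf6b (-0.57, adjusted p = 0.00136) and Creb3l2 (-0.40, adjusted p = 0.00666) fell in WT mice, Creb3l2 (-0.61) fell and Mbtps1 (0.25) rose in Klrk1-/- mice, and Atf6b was lower in Klrk1-/- mice on NCD (-0.41, adjusted p = 0.0375). Of 10 mitochondrial chaperones and proteases, 2 fell and 0 rose in WT mice, a share near that of all genes called lower, Clpp (-0.62, adjusted p = 0.0039) and Hspe1 (-0.55, adjusted p = 0.00508), and in Klrk1-/- mice 2 rose and 2 fell.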
